A study of Mus musculus with 2 samples.

Results

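Integrins are adhesion receptors made of 1 alpha and 1 beta chain, which pair inside the cell before they reach its surface. On T cells they hold the cell to blood vessel walls, to antigen-presenting cells and to the matrix, and the chain combination sets which ligand is bound. A beta chain can serve several alpha chains, so the supply of each partner bears on which receptors a cell can build. The 10 chains described here were chosen by gene symbol, with earlier results of these data known. They were 5 alpha chains (Itgal, Itga4, Itga6, Itgav and Itgae) and 5 beta chains (Itgb2, Itgb7, Itgb1, Itgb3 and Itgb8), out of 24346 symbols in the deposited tables. All 10 symbols were found in both tables.

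RNA was sequenced at day 14 from splenic CD4+ T cells of HFD-MI mice, isolated by sorting. There were 2 libraries, 1 from mice given probucol, an antioxidant drug that lowers blood cholesterol, and 1 from untreated mice, and both came from HFD-MI animals. The labels do not spell out HFD-MI, though the series title concerns remodelling after myocardial infarction. They also give neither the age or genotype of the mice nor the number of animals behind a library, and HypoE, a word in the headers of both tables, is not explained. Levels are in FPKM, fragments scaled to transcript length and to the mapped fragments of the library, as deposited. Since each group is a single library, spread between replicates cannot be measured and no p-value is given. Intervals are 95% counting intervals from estimated fragment numbers (exact Clopper-Pearson, or exact Poisson for a single level), and they cover counting error only. The amount of receptor on the cell surface was not measured.

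About 9.62e+06 fragments in genes were estimated with probucol and 9.64e+06 untreated, and 14289 against 16876 symbols were above 0. The sorted cell type was checked by 10 T cell genes, which summed to 5348 FPKM with probucol and 5225 FPKM untreated, none of them at 0. Cd4 stood at 334 with probucol and 284 FPKM untreated. RNA of other blood cells was present: 10 B cell genes summed to 63.6 FPKM with probucol and 22.8 FPKM untreated, with Pax5 at 0 in both, 9 erythroid genes to 282 with probucol and 1063 FPKM untreated, and 9 neutrophil genes to 1078 with probucol and 961 FPKM untreated. In such bulk libraries, fewer cells of a type and less RNA per cell cannot be told apart.

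Most beta chains have a short tail inside the cell through which talin and kindlin, the proteins that switch integrins on, take hold. Its landmark is the motif Asn-Pro-x-Tyr or Asn-Pro-x-Phe. The last 150 coding bases of each beta chain before the stop codon are shown because they set the abundant chains apart from Itgb8; capitals mark the codons of the motif. They are the coding strand of GENCODE M21 transcripts on GRCm38 (the assembly also named mm10), and each stretch spans the junction of 2 exons. Itgb2 lies at chr10:77564715-77565237 on the plus strand (exons 15 and 16), Itgb7 at chr15:102216163-102216516 on the minus strand (exons 14 and 15), Itgb1 at chr8:128726100-128732085 on the plus strand (exons 15 and 16), Itgb3 at chr11:104665546-104667142 on the plus strand (exons 14 and 15) and Itgb8 at chr12:119163120-119163366 on the minus strand (exons 13 and 14), the intron between the exons included in the span.
Itgb2: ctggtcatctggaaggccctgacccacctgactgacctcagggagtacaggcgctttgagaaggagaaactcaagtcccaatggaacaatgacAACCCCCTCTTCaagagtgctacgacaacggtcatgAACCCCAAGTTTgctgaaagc
Itgb7: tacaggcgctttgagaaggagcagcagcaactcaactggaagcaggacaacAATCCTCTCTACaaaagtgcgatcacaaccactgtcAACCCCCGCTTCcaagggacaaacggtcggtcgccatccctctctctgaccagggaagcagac
Itgb1: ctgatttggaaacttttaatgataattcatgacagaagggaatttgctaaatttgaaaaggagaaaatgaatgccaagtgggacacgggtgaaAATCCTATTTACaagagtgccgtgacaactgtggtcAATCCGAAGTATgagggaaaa
Itgb3: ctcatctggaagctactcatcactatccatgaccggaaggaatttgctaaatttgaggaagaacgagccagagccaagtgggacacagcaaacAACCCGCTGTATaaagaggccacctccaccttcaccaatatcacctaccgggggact
Itgb8: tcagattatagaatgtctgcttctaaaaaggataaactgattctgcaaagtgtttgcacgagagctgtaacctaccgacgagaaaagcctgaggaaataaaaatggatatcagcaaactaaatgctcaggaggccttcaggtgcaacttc

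Itgb2, Itgb7 and Itgb1, the 3 most abundant beta chains in these cells, each held 2 copies of the motif. Itgb3 held 1 match, and Itgb8 held 0 in this window. Only this pattern was searched, so related stretches, such as Asn-Ile-Thr-Tyr near the end of the Itgb3 bases shown, are not counted. Among 21258 mouse coding genes, 0.828% hold at least 1 match in their last 50 codons. The alpha chains carry their own landmark just inside the membrane, the residues GFFKR, where the alpha and beta tails clasp each other in the resting receptor. It was found in all 5 alpha chains and in 0.0659% of the coding genes, within the last 80 codons. It is shown for the most abundant alpha chain, Itgal (chr7:127330228-127333484, plus strand, exons 30 and 31), for the shared partner Itga4 (chr2:79325683-79326552, plus strand, exons 27 and 28) and for Itgae (chr11:73145640-73147083, plus strand, exons 30 and 31), the chain that differed most between the libraries. Capitals mark the codons of the motif, with 15 bases on either side.
Itgal: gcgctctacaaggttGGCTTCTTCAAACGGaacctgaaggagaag
Itga4: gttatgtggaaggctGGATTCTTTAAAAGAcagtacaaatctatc
Itgae: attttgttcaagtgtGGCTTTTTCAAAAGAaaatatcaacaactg

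None of the 10 chains differed between the libraries by 2-fold. Genes with a mean of at least 1 FPKM are compared on the log2 ratio of FPKM + 1 (probucol over untreated), a scale that understates changes of low genes. All 10 chains passed that filter. On it 0 of 10 chains were at least 2-fold higher and 0 of 10 at least 2-fold lower, against 1.62% and 1.98% of the 10663 genes compared. At 1.5-fold the counts were also 0 and 0, against 5.99% and 5.53% of genes. On plain FPKM ratios, 0 chains were at least 1.5-fold higher, against 9.05% of genes, and 1 chain (Itgae) was at least 1.5-fold lower, against 7.67% of genes. Of the chains 6 were higher and 4 lower with probucol, with a median log2 ratio of 0.037, against 0.017 over all genes compared. The lowest and highest values were -0.56 for Itgae and 0.23 for Itga4. For 6 of the 10 chains the counting interval of the FPKM ratio excluded 1, with 3 higher and 3 lower, and for 4 it held 1. Of the 10269 compared genes with an annotated length, the interval excluded 1 for 51.8%, with 28.3% higher and 23.5% lower, so the share among the chains was close to that of all genes.

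**Figure D1:**
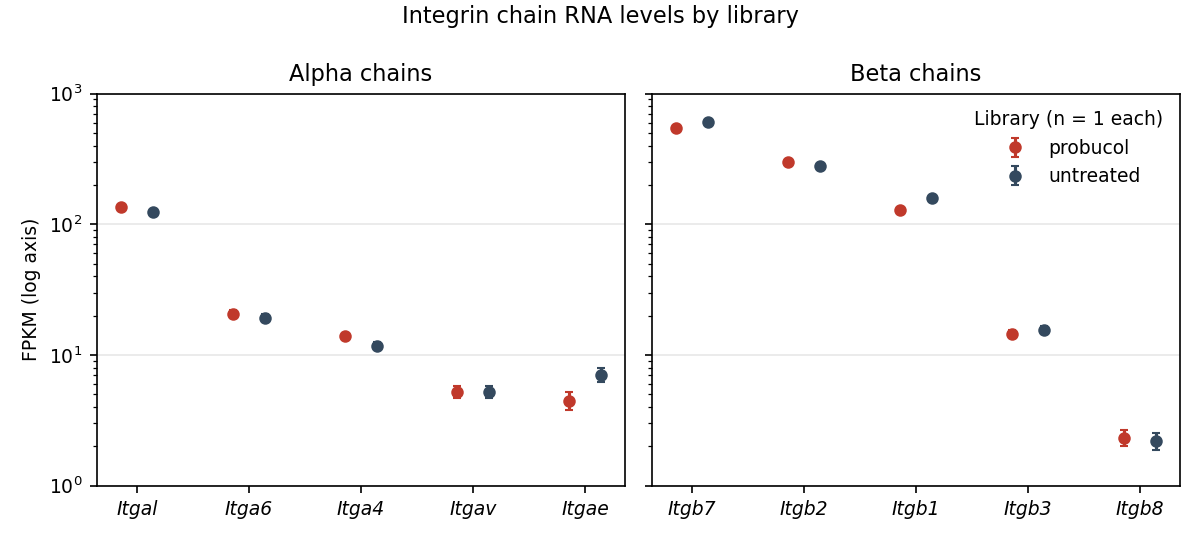
FPKM on a log axis of the 5 alpha chains (left) and 5 beta chains (right) in the probucol library (red) and the untreated library (dark blue), 1 library each, with exact Poisson 95% counting intervals as bars. Itgb7 is highest at 544 with probucol and 601 FPKM untreated and Itgb8 lowest at 2.33 with probucol and 2.18 FPKM untreated, and Itgae shows the widest gap between the libraries.

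LFA-1, the receptor of Itgal and Itgb2, binds the ICAM proteins and holds T cells to endothelium and to antigen-presenting cells. Itgal (chromosome 7, 127296260 to 127335138, plus strand) was at 135 FPKM in the probucol library and 123 FPKM in the untreated library (ratio 1.10, interval 1.06 to 1.14). Itgb2 (chromosome 10, 77530252 to 77565708, plus strand) was at 300.2 FPKM in the probucol library and 279 FPKM in the untreated library (ratio 1.07, interval 1.04 to 1.11). Both partners were thus slightly higher with probucol, by similar amounts. Their proportion differed between the libraries by less than counting error: Itgal stood at 0.449 of Itgb2 with probucol (0.434 to 0.465) and at 0.441 untreated (0.425 to 0.456). The ratio of these 2 proportions was 1.02 (0.971 to 1.07). Itgb2 also serves the myeloid alpha chains Itgam and Itgax. Itgam was at 1.48 with probucol and 0.870 FPKM untreated (ratio 1.70, 1.08 to 2.61), and Itgax at 0.263 FPKM with probucol and listed at 0 untreated. Neutrophil genes, led by S100a8 at 591 with probucol and 536 FPKM untreated, were present beside this low Itgam, with 8 of 9 higher with probucol, and what part of the Itgb2 level came from myeloid cells was not tested.

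Itga4 is the alpha chain of VLA-4, with Itgb1, which binds VCAM-1 and fibronectin, and of the gut-homing receptor with Itgb7, which binds MAdCAM-1. Itga4 (chromosome 2, 79255426 to 79333123, plus strand) was at 14.02 FPKM in the probucol library and 11.8 FPKM in the untreated library (ratio 1.19, interval 1.10 to 1.29), the highest of the 10 chains. Itgb1 (chromosome 8, 128685654 to 128733200, plus strand) was at 129 FPKM in the probucol library and 158 FPKM in the untreated library, 1.22-fold lower (1.18 to 1.27). Itgb7 (chromosome 15, 102215995 to 102231944, minus strand) was at 544 FPKM in the probucol library and 601 FPKM in the untreated library, 1.11-fold lower (1.08 to 1.13). The shared alpha chain was therefore higher and both of its beta partners were lower with probucol. RNA of other blood cells was present in both libraries, and its part in these levels was not tested. Over the 1180 abundant genes, with a mean of at least 100 FPKM, the median log2 ratio was -0.07, against -0.29 for Itgb1 and -0.15 for Itgb7. That floor was set after the values were seen.

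The proportion of Itga4 to its partners was higher with probucol. Itga4 stood at 0.109 of Itgb1 with probucol (0.102 to 0.116) and at 0.0746 untreated (0.0699 to 0.0796), a ratio of proportions of 1.46 (1.33 to 1.59), the furthest above 1 of the 8 pairings. Against Itgb7 it stood at 0.0258 with probucol (0.0244 to 0.0273) and at 0.0196 untreated (0.0184 to 0.0208), a ratio of 1.32 (1.21 to 1.43). FPKM divides by annotated length, and the Itga4 transcript of 9767 bases is 31.7% coding, against 90.2% for Itgb7. How much of the long noncoding part these cells transcribe was not tested, so the level of Itga4 beside its partners depends on the annotation. Length cancels in the ratio between libraries only if both libraries hold the same transcript forms, which was not tested. Exons of Itga4 also share 1124 bases with the gene Cerkl on the other strand, at 2.84 with probucol and 2.57 FPKM untreated, and the labels name no stranded counting.

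Itgae encodes CD103, an alpha chain that pairs with Itgb7 to bind E-cadherin. CD103 marks lymphocytes held in epithelia as well as a subset of regulatory T cells. Itgae (chromosome 11, 73090583 to 73147446, plus strand) was at 4.45 FPKM with probucol, on about 161 fragments, and 7.02 FPKM untreated, on about 255 fragments. It was 1.58-fold lower with probucol (1.29 to 1.93), the furthest from 1 of the 10 chains, and 6.05% of the genes compared had a lower log2 ratio. Itgae stood at 0.00819 of Itgb7 with probucol (0.00697 to 0.00957) and at 0.0117 untreated (0.0103 to 0.0132), a ratio of 0.702 (0.572 to 0.860), the furthest below 1 of the 8 pairings. The Itgb7 in these cells thus exceeded both of its alpha partners: Itga4 and Itgae summed to 18.5 FPKM with probucol and 18.8 FPKM untreated, against 544 FPKM of Itgb7 with probucol and 601 FPKM untreated.

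Markers of T cell subsets and other blood cells, some of them known to carry CD103, stood as follows. Foxp3, the master regulator of regulatory T cells, was at 67.5 with probucol and 70.3 FPKM untreated (ratio 0.960, 0.899 to 1.02). The summed level of 8 regulatory T cell genes was 793 FPKM with probucol and 1177 FPKM untreated, with 2 of 8 higher and 6 lower. Most of that gap lay in Tnfrsf18, at 372 with probucol and 600.5 FPKM untreated, and Tnfrsf4, at 213 with probucol and 360.3 FPKM untreated. The other 6 genes summed to 207 FPKM with probucol and 216 FPKM untreated. The 8 Th1 and effector genes summed to 488 FPKM with probucol and 1085 FPKM untreated, with 7 of 8 lower. Of these, 4 were at least 2-fold lower, against 1.98% of the 10663 genes compared. Among these were Ccl5, a chemokine gene (ratio 0.285, 0.255 to 0.318), Gzmb, which encodes granzyme B (0.385, 0.327 to 0.454), and Nkg7, a gene of cytotoxic granules (0.474, 0.438 to 0.514). Tbx21, the 1 gene higher (ratio 1.02, 0.876 to 1.18), and Ifng (0.951, 0.757 to 1.18) did not differ beyond counting error. Most of the summed gap lay in Ccl5, at 131 with probucol and 459 FPKM untreated, and Nkg7, at 158 with probucol and 333 FPKM untreated. The sum of this list was therefore lower together with Itgae, but not every gene of it. All 7 naive and central memory genes were also lower, summing to 2167 FPKM with probucol and 2467 FPKM untreated, and 0 were past 2-fold. Of the CD8 genes, Cd8b1 was at 15.9 with probucol and 19.6 FPKM untreated (ratio 0.814, 0.674 to 0.986), and Cd8a at 0.139 with probucol and 0.276 FPKM untreated. Dendritic cell genes summed to 5.76 with probucol and 6.53 FPKM untreated over 8 genes, and both genes compared were lower. Xcr1 had a ratio of 0.534 (0.358 to 0.786), on about 42 fragments with probucol and 79 untreated, and Zbtb46, below the filter, a ratio of 0.309 (0.138 to 0.655). Clec9a, Itgax and Batf3 were listed at 0 untreated and rested on about 1, 6 and 1 fragments with probucol. Siglech (0.687 with probucol and 0.228 FPKM untreated) and Flt3 (0.145 with probucol and 0.0290 FPKM untreated), also below the filter, were higher, with intervals that held 1. Natural killer genes summed to 8.98 with probucol and 19.1 FPKM untreated over 8 genes. Of the 5 compared, 1 was higher and 4 lower, 2 of these at least 2-fold lower, against 1.98% of all genes compared. Below the filter, Ncr1 was higher (ratio 13.1, 1.96 to 555), on about 13 fragments with probucol and 1 untreated. The intervals of Klre1 and Klrc2, also below it, held 1. The part of any of these in the Itgae difference was not tested.

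**Figure D2:**
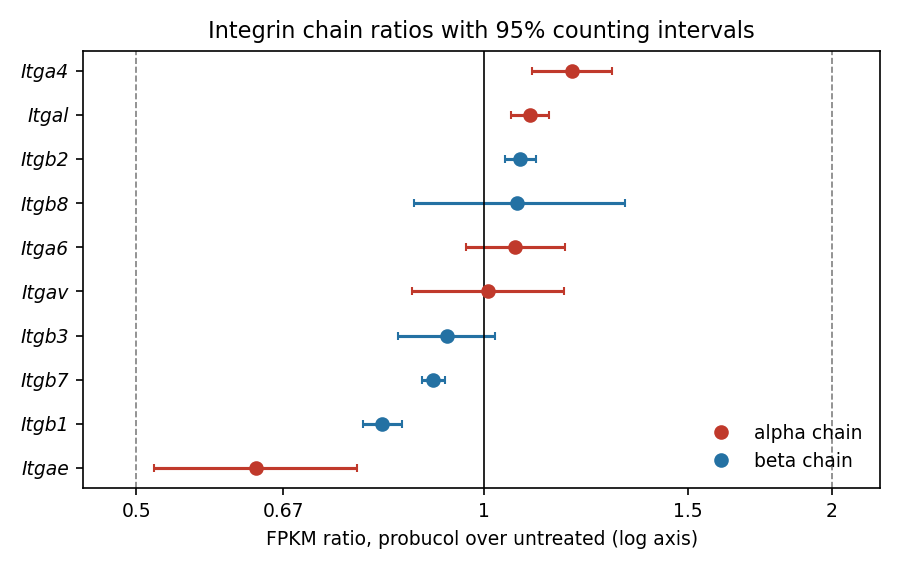
FPKM ratio of probucol over untreated on a log axis for the 10 chains, sorted by ratio, with 95% counting intervals as bars, alpha chains in red and beta chains in blue; dashed lines mark 2-fold. Itgae lies lowest at 0.634 and Itga4 highest at 1.19, and all 10 intervals stay inside the 2-fold lines.

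Itga6 makes a laminin receptor with Itgb1. Itga6 (chromosome 2, 71745616 to 71858416, plus strand) was at 20.5 FPKM in the probucol library and 19.3 FPKM in the untreated library (ratio 1.06, interval 0.964 to 1.18). It was the second most abundant alpha chain in both libraries. Relative to Itgb1 it stood at 0.159 with probucol (0.148 to 0.172) and 0.122 untreated (0.113 to 0.132), a ratio of 1.30 (1.17 to 1.45). The ratio of Itga6 between the libraries lay within counting error, and Itgb1 was lower with probucol.

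Itgav pairs with several beta chains: with Itgb3 it binds vitronectin and other matrix proteins, and with Itgb8 it releases active TGF-beta from its latent form. Itgav (chromosome 2, 83724397 to 83806916, plus strand) was at 5.24 FPKM in the probucol library and 5.20 FPKM in the untreated library (ratio 1.01, interval 0.867 to 1.17). Itgb3 (chromosome 11, 104608000 to 104670476, plus strand) was at 14.5 with probucol and 15.6 FPKM untreated (ratio 0.928, 0.842 to 1.02). Itgb8 (chromosome 12, 119158022 to 119238802, minus strand) was at 2.33 with probucol and 2.18 FPKM untreated (ratio 1.07, 0.870 to 1.32). For all 3 genes the interval held 1, and differences of up to about 1.32-fold were not resolved at this depth for Itgb8.

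Itgb8 was the single beta chain below its alpha partner. Its transcript of 8403 bases is 27.4% coding, against 44.4% for Itgav, so the level of Itgb8 beside Itgav also depends on the annotation. Itgav stood at 2.25 times Itgb8 with probucol (1.88 to 2.70) and 2.39 times untreated (1.99 to 2.88). It stood at 0.362 of Itgb3 with probucol (0.319 to 0.411) and 0.334 untreated (0.294 to 0.378), and at 0.0407 of Itgb1 with probucol (0.0364 to 0.0454) and 0.0330 untreated (0.0295 to 0.0367). The ratios of proportions were 0.943 (0.724 to 1.22) with Itgb8, 1.09 (0.907 to 1.30) with Itgb3 and 1.23 (1.06 to 1.44) with Itgb1. Itgb3 is also the partner of the platelet chain Itga2b, which was at 0.993 with probucol and 0.897 FPKM untreated. The platelet list, Itga2b among its 10 genes, summed to 6.57 FPKM with probucol and 4.13 FPKM untreated, with 8 of 10 under 1 FPKM in each library and Gp6 at 0 in both. The part of platelet RNA in the Itgb3 level was not tested.

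**Figure D3:**
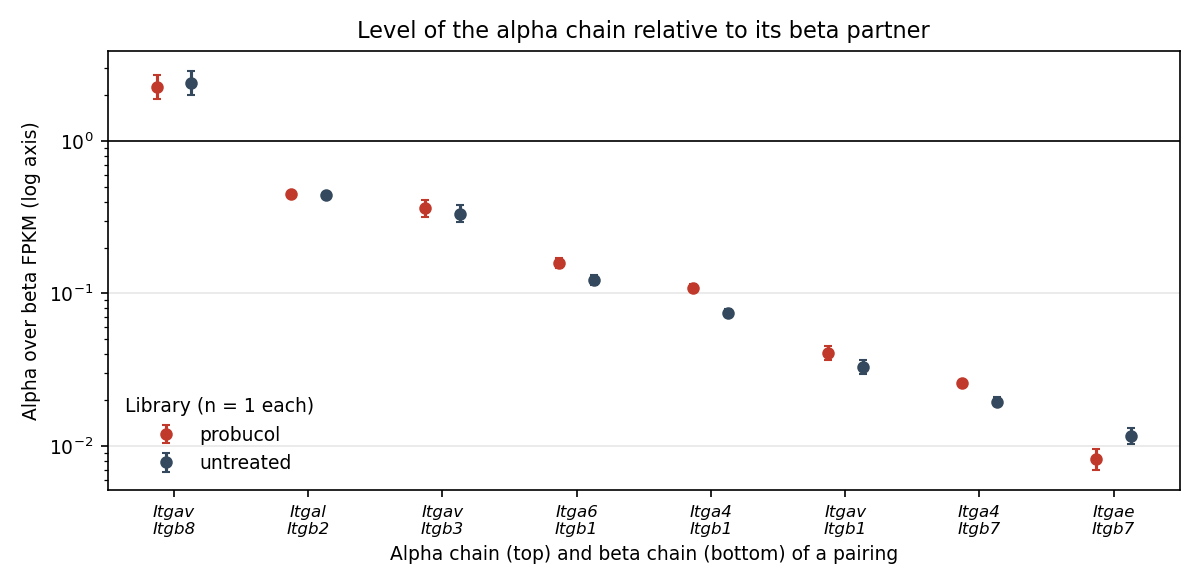
FPKM of the alpha chain divided by FPKM of its beta partner on a log axis for 8 known pairings, in the probucol library (red) and the untreated library (dark blue), with exact 95% counting intervals as bars. The line marks equal levels: only the pairing of Itgav with Itgb8 lies above it, and the 3 pairings with Itgb1 and that of Itga4 with Itgb7 are higher with probucol, while that of Itgae with Itgb7 is lower.

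In both libraries, 7 of the 8 pairings had more RNA of the beta than of the alpha chain. The 5 beta chains summed to 989 FPKM with probucol and 1056 FPKM untreated, and the 5 alpha chains to 179 with probucol and 166 FPKM untreated, so beta chain RNA exceeded alpha chain RNA 5.52-fold with probucol and 6.35-fold untreated. Itgal made up 75.3% of the alpha chain sum with probucol and 74.0% untreated. Itgb7 made up 54.9% of the beta chain sum with probucol and 56.9% untreated, and Itgb2 30.3% with probucol and 26.5% untreated. The alpha partners of Itgb1 among the 10 chains (Itga4, Itga6 and Itgav) summed to 39.8 with probucol and 36.2 FPKM untreated, against 129 FPKM of Itgb1 with probucol and 158 FPKM untreated. Between the libraries, 6 pairings had a higher and 2 a lower alpha to beta proportion with probucol, and for 5 of the 8 the interval excluded 1. The share over other pairs of genes was not computed. For single genes the interval of the ratio excluded 1 for 51.8%, so the count does not set these pairings apart. Several pairings share a chain, Itgb1 in 3 of them and Itgav in 3, so they are not independent.

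The order of the levels was nearly the same in both libraries. With probucol it ran Itgb7, Itgb2, Itgal, Itgb1, Itga6, Itgb3, Itga4, Itgav, Itgae and Itgb8. Itgb3 and Itga4, with a ratio of 1.03 (0.944 to 1.13), and Itgav and Itgae, with a ratio of 1.18 (0.974 to 1.43), did not differ there beyond counting error. The untreated order had Itgb1 above Itgal, by 1.28-fold (1.23 to 1.33), and Itgae above Itgav, by 1.35-fold (1.14 to 1.59). With probucol, Itgal was above Itgb1 by 1.05-fold (1.01 to 1.09). Itgb7 ranked 201st from the top of all symbols with probucol and 189th untreated, while Itgb8 ranked 9410th with probucol and 9480th untreated.

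**Figure D4:**
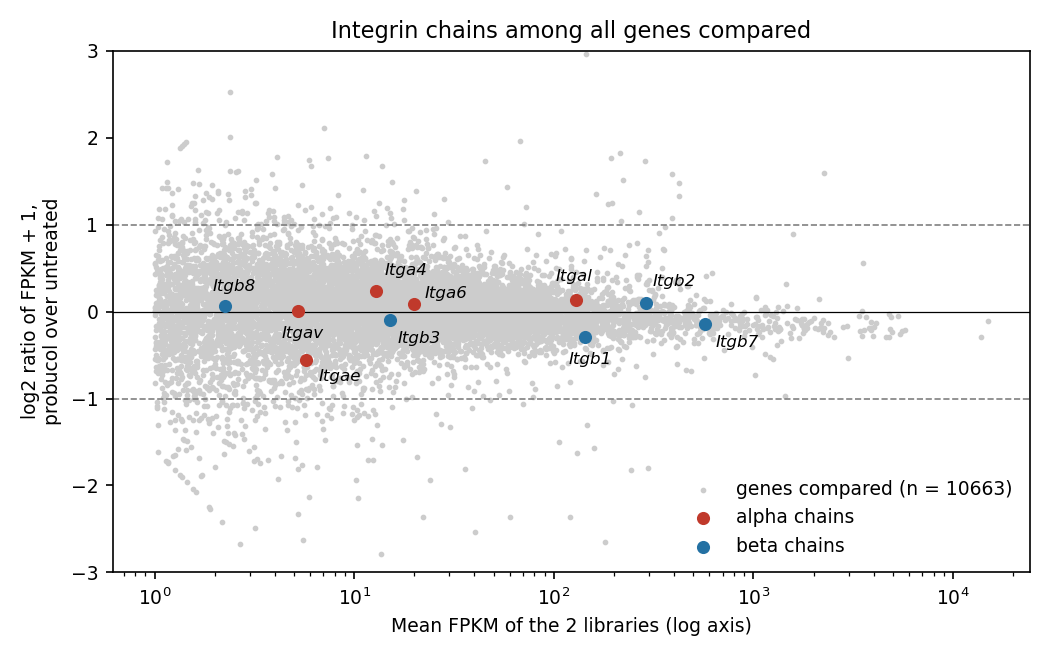
Log2 ratio of FPKM + 1 (probucol over untreated) against the mean FPKM of the 2 libraries on a log axis, for 10663 genes in grey, with the alpha chains in red and the beta chains in blue; 52 genes lie beyond the axis limit of 3 and are not drawn. All 10 chains lie between -0.56 and 0.23, inside the dashed 2-fold lines.

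The mouse has further integrin chains, of which 16 were in the tables. Of these, 3 had a mean of at least 1 FPKM, and 1 was at least 2-fold lower, against 1.98% of the 10663 genes compared. Their median log2 ratio was 0.41 and their mean -0.14, and the median over all chains above 0 in either library was -0.058, so the direction of the list depends on how it is summarised. Itga7, a laminin receptor chain best known from muscle, was at 1.58 FPKM in the probucol library and 5.55 FPKM in the untreated library, 3.52-fold lower (2.62 to 4.74), on about 60 fragments with probucol and 211 untreated. With a pseudocount of 5 its log2 ratio was -0.68, against -1.35, and no longer past 2-fold. Itgb5, another partner of Itgav, was at 1.88 with probucol and 1.02 FPKM untreated (ratio 1.85, 1.15 to 2.996). Itga1, a collagen receptor chain of tissue-resident and effector lymphocytes, was below the filter at 0.156 with probucol and 0.726 FPKM untreated, on about 17 fragments with probucol and 78 untreated, 4.65-fold lower (2.68 to 8.23). Of the 13 chains below the filter, the interval excluded 1 for 4. Itga1 and Itgb4 (0 with probucol and 0.103 FPKM untreated, on about 6 fragments untreated) were lower with probucol. Itga9 (ratio 1.97, 1.06 to 3.73, on about 33 fragments with probucol and 17 untreated) and Itgax were higher. The share of all genes below the filter with such an interval was not computed. Over all symbols, 3289 were at 0 in the probucol library only and 702 in the untreated library only. Itga9 and Itgb4 were named after their values were seen.

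Adaptors that switch integrins on from inside the cell ranged from Apbb1ip, at 11.2 FPKM untreated, to Rap1b, at 344 FPKM untreated. All 15 genes of this list were compared, 9 higher and 6 lower with probucol, 0 past 2-fold, with a median log2 ratio of 0.078. Beside this list and those below, 1.62% of all genes compared were at least 2-fold higher and 1.98% at least 2-fold lower. Their median log2 ratio was 0.017, and the share higher or lower by any amount was not computed. Rap1b, the small GTPase at the centre of this route, was at 332 with probucol and 344 FPKM untreated, and Skap1, which links it to the T cell receptor, at 266 with probucol and 296 FPKM untreated. The widest gap was in Apbb1ip, which encodes RIAM, the adaptor that brings talin to the membrane, at 15.9 with probucol and 11.2 FPKM untreated (ratio 1.42, 1.22 to 1.66). Vav1 (1.23, 1.16 to 1.31), Cyth1 (1.23, 1.17 to 1.29) and Rap1a (1.20, 1.10 to 1.31) also had ratios above 1. Talin itself (Tln1) was at 48.9 with probucol and 46.3 FPKM untreated and kindlin-3 (Fermt3), the blood cell kindlin, at 163 with probucol and 175 FPKM untreated; these last 2 genes were picked for their role after the values were seen.

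Of 10 genes that restrain integrins or Rap1, 9 were compared, 6 higher and 3 lower, 0 past 2-fold, with a median log2 ratio of 0.21. Krit1, a Rap1 effector that takes up the Itgb1 tail inhibitor and so frees the tail, against the name of the list, was at 13.9 with probucol and 8.77 FPKM untreated (ratio 1.58, 1.35 to 1.88). That inhibitor, Itgb1bp1, was at 53.1 with probucol and 44.5 FPKM untreated (ratio 1.20, 1.06 to 1.35), and Sharpin, which holds integrins inactive, at 62.0 with probucol and 53.0 FPKM untreated (ratio 1.17, 1.06 to 1.29). Dok2, an adaptor with a domain of the kind that binds the beta tail motif, was at 396 with probucol and 302 FPKM untreated (ratio 1.31, 1.27 to 1.36). Slfn2, the most abundant gene of the list, was at 602 with probucol and 688 FPKM untreated (ratio 0.876, 0.851 to 0.901), and is known for keeping T cells quiescent rather than for holding integrins back.

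Of 15 genes that act downstream of bound integrins, 12 were compared, 9 higher and 3 lower, 0 past 2-fold, with a median log2 ratio of 0.11. Ptk2b, the focal adhesion kinase relative of T cells, was at 82.4 with probucol and 66.0 FPKM untreated (ratio 1.25, 1.18 to 1.32), and Ptk2 itself at 2.79 with probucol and 2.06 FPKM untreated (ratio 1.35, 1.02 to 1.80). Vcl, which ties adhesions to actin, was at 4.43 with probucol and 3.42 FPKM untreated (ratio 1.30, 1.06 to 1.59). Tns1, another actin linker, was lower, at 1.01 with probucol and 1.76 FPKM untreated (ratio 0.576, 0.445 to 0.743). Fyn and Ilk, the 2 most abundant genes of the list, had ratios of 1.05 (1.01 to 1.11) and 0.965 (0.908 to 1.03).

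Of 16 ligands and counter-receptors, 8 were compared, 4 higher and 4 lower, with a median log2 ratio of 0.016. The 1 gene past 2-fold was Spp1, which encodes osteopontin, a ligand of integrins with Itgav or Itga4, at 15.4 FPKM in the probucol library and 39.2 FPKM in the untreated library, 2.55-fold lower (2.15 to 3.04). Vcam1, the ligand of VLA-4, was at 8.11 with probucol and 4.73 FPKM untreated (ratio 1.72, 1.38 to 2.14). It is also a marker of splenic macrophages, and the other 9 genes of the macrophage list summed to 151 FPKM with probucol and 152 FPKM untreated, with 5 of 7 compared higher. Lyz2 made up most of that sum, at 125 with probucol and 132 FPKM untreated, and the remaining 8 genes summed to 25.5 FPKM with probucol and 20.1 FPKM untreated. Their part in the Vcam1 difference was not tested. Icam2, a ligand of LFA-1, was at 104 with probucol and 125 FPKM untreated (ratio 0.829, 0.765 to 0.898), and Nrros, which anchors latent TGF-beta on blood cells, at 83.3 with probucol and 61.0 FPKM untreated (ratio 1.36, 1.27 to 1.46). Icam4 was at 1.43 with probucol and 2.57 FPKM untreated on about 11 fragments with probucol and 20 untreated, with an interval of the ratio from 0.239 to 1.21. Madcam1, the ligand of the Itga4 and Itgb7 receptor, was at 0 FPKM in both libraries, and Cdh1, the E-cadherin bound by CD103, at 0.0715 with probucol and 0.261 FPKM untreated.

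**Figure D5:**
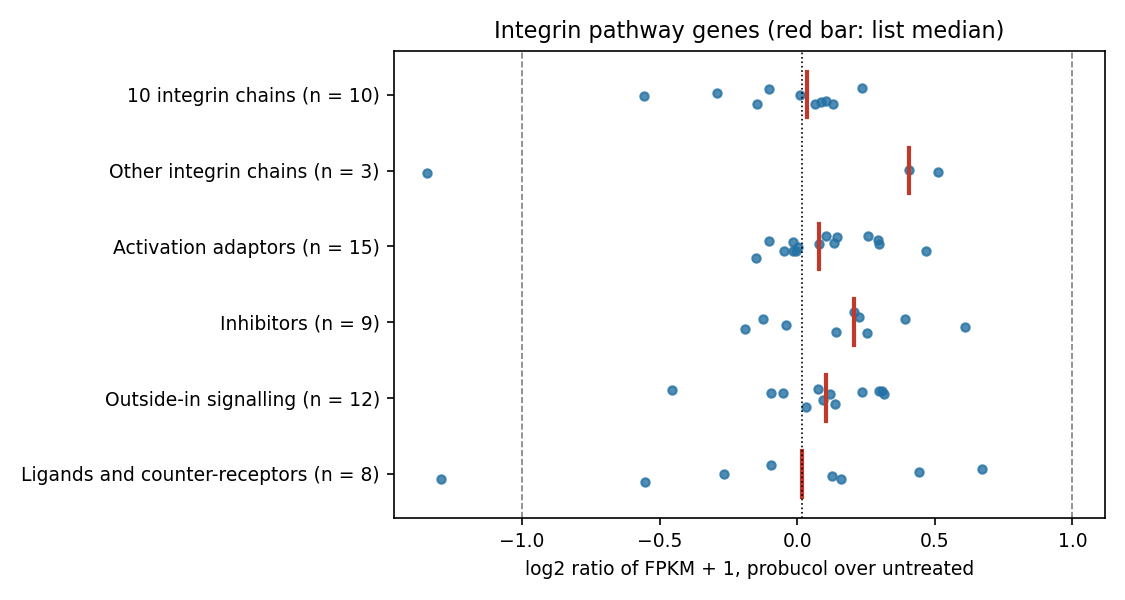
Log2 ratio of FPKM + 1 (probucol over untreated) of each gene compared, for the 10 integrin chains and 5 pathway lists, with the list median as a red bar, the median of all genes compared as a dotted line and 2-fold as dashed lines. List medians lie between 0.016 and 0.41 (the other integrin chains, over 3 genes, whose mean is -0.14), and Itga7 and Spp1 are the 2 genes past 2-fold.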

How the data were processed

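The files are the authors' FPKM tables, with a single value for each symbol, per the file headers. The submitters' processing notes list TopHat2 (2.1.1), Bowtie2, Cuffdiff (2.2.1) and mm10 but not what each was used for. The annotation, the filters and any scaling between libraries were not given in the sources used here. SMART-Seq HT and Nextera kits were used, per the labels' protocols. Neither molecular identifiers nor stranded counting are named, so PCR copies and antisense reads are not separated.

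A count model needs counts and was not used on FPKM. The worth of 1 fragment was estimated from steps in low FPKM values of genes with 1 transcript in the GENCODE M21 basic set (GRCm38): 0.101 FPKM at 1 kb with probucol and 0.100 untreated, after subtracting 210 bases. Of these values 71.2% and 71.6% lay within 0.1 of a whole fragment, where evenly spread values would give 20%. Fragments per gene use the median length of its basic transcripts, so intervals are approximate; for an alpha to beta proportion between libraries the interval is the exact conditional one of an odds ratio. The computation was tested on simulated data (Python 3.11.15, scipy 1.17.1).

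Samples were grouped by the treatment label. Ratios are FPKM over FPKM; log2 ratios use FPKM + 1. Named genes were the 10 chains, other integrin chains with a mean of at least 1 FPKM plus Itgam, Itgax, Itga2b and Itga1, and of each pathway list the 4 largest log2 ratios and 2 most abundant genes. Marker genes named beside a result are from the marker lists. The chains and the lists were chosen with earlier results of these data known. Alternatives were pseudocounts of 0.1 and 5, rescaling to equal FPKM sums, centring, other filters, 1.5-fold, list means, lists without shared genes and longest transcripts.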

Additional observations from a re-analysis of the deposited data

How the results depend on the processing

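No paired analysis was possible because each group has 1 library, and for the same reason no library could be left out. Over the 10 chains, 40 log2 ratios under other pseudocounts and scalings all stayed inside the counting interval of the reported value, taken on the log2 scale of FPKM + 1. On the plain ratio scale 1 lay outside, Itgae with pseudocount 5, at a ratio of 0.787 against an upper bound of 0.776. A single value changed sign, that of Itgav, at -0.0089 after centring on the median gene. The number of chains past 2-fold was 0 in all 4 of these settings, and 0 at 1.5-fold; it was 1 (Itgae) at 1.5-fold with pseudocount 0.1 and 1 on plain FPKM, both chosen after seeing the data. The numbers of all genes at least 2-fold higher and lower depend on the setting: 313 and 357 with pseudocount 0.1, 55 and 64 with pseudocount 5, 83 and 96 with a mean of at least 5 FPKM, and 639 and 590 at 1.5-fold, against 173 and 211. The median log2 ratio of the other integrin chains, over 3 genes, was 0.70 with pseudocount 0.1, against 0.41, and its sign turned with no filter (-0.058), without genes shared between lists (-0.42) and as a mean (-0.14). Rescaling to equal sums moved the median of all genes compared to 0.039, against 0.017. The ratios of proportions of the 8 pairings stayed inside their counting intervals with a pseudocount of 1. Use of the longest transcript cannot test them, since the same length divides both libraries and cancels. Within a library it does not cancel: Itgal over Itgb2 was 0.400 with probucol, against 0.449, and 0.392 untreated, against 0.441. Itga7 had a log2 ratio of -1.75 with pseudocount 0.1 and -0.68 with pseudocount 5, against -1.35. Counting these, 169 values for single genes, single lists or single libraries stayed within counting error (counts of genes, within 1.5 times) and 19 moved beyond it, most of them levels of one chain over another within a library. Depth limits mainly Itgb8 and Itgae, which rest on 161 to 255 fragments in a library.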
